A study of Arabidopsis thaliana with 12 samples.

Results

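The genes described here are the named members of the glutathione transferase, glutaredoxin and peroxidase families in Arabidopsis leaves 5 min after wounding. They were chosen by name, as spots that the platform annotation gives to exactly 1 gene whose symbol begins with 1 of 17 redox family stems, such as GSTU or GRX, followed by a digit or a final letter. The rule found 18 genes, each with 1 spot, among 9335 spots with 1 named gene and 22575 spots in all. They are 10 tau, 2 phi and 1 lambda glutathione transferases, 3 glutaredoxins of the CC type and 2 class III peroxidases. The other 11 stems, among them those for catalases, superoxide dismutases, ascorbate peroxidases and NADPH oxidases, found no spot, and those enzymes are not members here. GRXC1, GRXC2, GrxC5 and PRXR1 carry a letter and then a digit after the stem and are described with the other pathway genes.

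The wounded sample on each array was RNA from rosette leaves of soil-grown, 3-week-old plants of ecotype Col (Columbia-0), crushed with a hemostat and taken 5 min later. It was hybridised together with RNA from rosette leaves of Col plants that were not wounded, as the control. Each RNA came from a pool of plants, and 3 biological replicates of such a pair were each run on 4 two-colour arrays, 2 for either dye orientation. On 1 array of replicate 3 the channel label gives the wounded sample another number than the title does, and fits without it are given for GRX480 and for the pathway genes that passed. None of the 14 members tested passed without it, with adjusted p from limma of 0.090 for GRX480 to 0.94 for GSTU27. A value is given below as the log2 ratio of the wounded over the not wounded signal, averaged over the 4 arrays of a replicate, and its error as the SD over the 3 replicates. Signals are the processed intensities of the scanner software, in arbitrary units, as geometric means over those 4 arrays.

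Glutathione transferases join the thiol of glutathione to reactive or toxic compounds, and the tau and phi classes are large, plant-specific families known for their response to herbicides, pathogens and hormones. Glutaredoxins reduce disulfides with electrons from glutathione, and those of the CC type are found in land plants, where several bind TGA transcription factors. Class III peroxidases are secreted enzymes that use hydrogen peroxide in the cell wall, where wounding and pathogens are known to release reactive oxygen species.

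Of the 18 genes, 14 were bright enough to test, which means that no dye-swap pair had a deposited ratio of 0 on both of its arrays, over 6 such pairs. Each gene's mean over the 3 replicates was compared with 0 by limma, and p was adjusted over 20072 genes and unnamed spots. In such bulk samples, fewer cells of a type and less RNA per cell cannot be told apart. At an adjusted p under 0.05, 1 of the 14 was higher in wounded leaves and 0 were lower, where 7.25% of all genes and spots tested were higher and 7.24% were lower. Without adjustment, 2 members were higher and 0 lower at the same threshold, where 3326 of all 20072 genes and spots were higher and 3285 lower. The median log2 ratio of the 14 was 0.04, against 0.0046 over all genes and spots tested, and the median of its absolute size was 0.088, against 0.135 over all. With 1 call in 14, the count is near the background and is no result about the members as a group. The plot of replicate ratios shows GRX480 to the right of the other members and the remaining means close to 0.

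**Figure D1:**
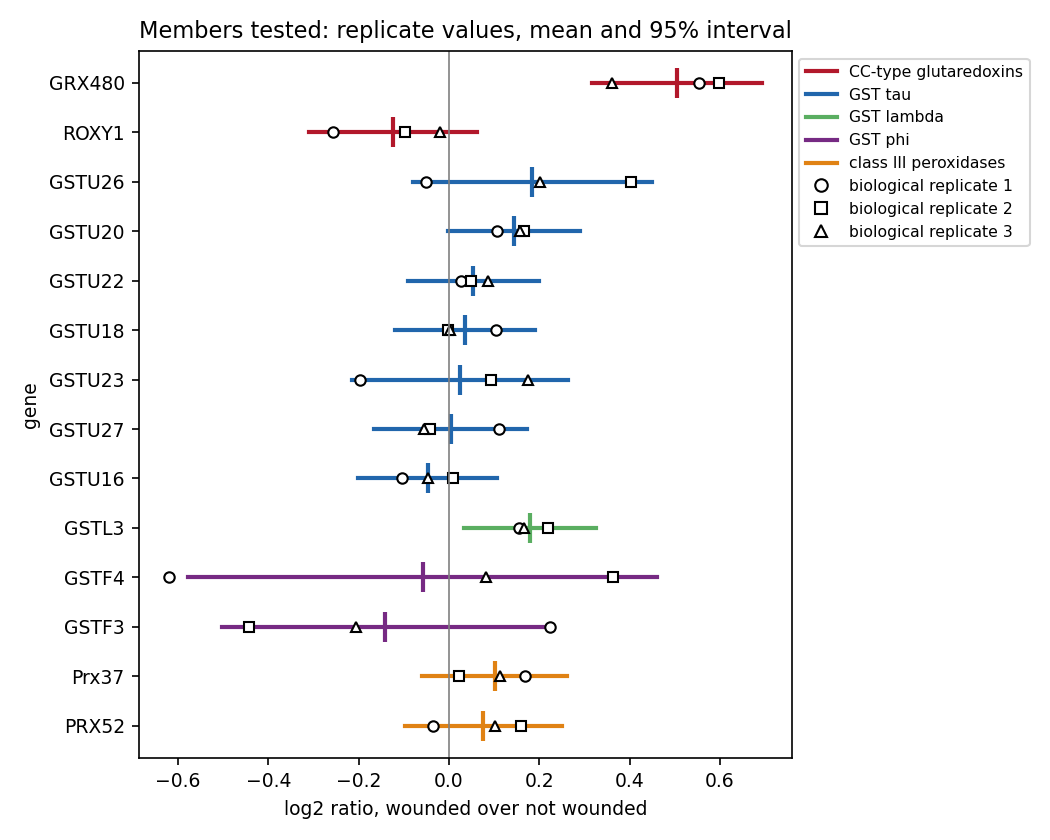
Log2 ratio of wounded over not wounded (x axis) for the 14 members tested (y axis, grouped by family), with open symbols for the 3 biological replicates, a tick for the mean and a bar for the 95% interval from limma. The interval of GRX480 runs from 0.32 to 0.69, while those of the other members reach 0 except that of GSTL3, which starts at 0.03.

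GRX480 (ROXY19, AT1G28480), a CC-type glutaredoxin known to be induced by salicylic acid and to bind TGA factors, was the member that rose. Its signal was 1097, 1224 and 929 in wounded leaves of replicates 1, 2 and 3, against 748, 809 and 722 in leaves that were not wounded. All 3 wounded values thus lay above all 3 not wounded values, and the groups did not overlap. This held for 1 of the 14 members, where 4.7% of all genes and spots tested had the wounded group above the other without overlap and 2.5% had it below. The log2 ratio was 0.55, 0.60 and 0.36 in the 3 replicates, with a mean of 0.50 ± 0.13 (SD, n = 3), a fold change of 1.42 with a 95% interval of 1.24 to 1.62 (adjusted p = 0.022 from limma).

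The rise of GRX480 differed in size with the dye. On the 12 arrays its log2 ratio ran from -0.13 through a median of 0.59 to 0.87, and it was above 0 on 11 of them. The mean was 0.78 over the Cy3 arrays, those with the wounded sample labelled in Cy3, and 0.22 over the Cy5 arrays. In replicate 3 the Cy5 arrays had -0.13 and 0.01, so that the rise of that replicate came from the Cy3 arrays, at 0.87 and 0.69. Within a replicate the 2 dye-swap pairs agreed closely, with a technical SD of 0.025 on the log2 scale. Each pair averages both dye orientations, so here and below the technical SD leaves out the difference between the dyes. GRX480 did not pass when any 1 biological replicate was left out (adjusted p = 0.060, 0.12 and 0.057 from limma without replicate 1, 2 and 3). Nor did it pass without the array of the differing label (limma, adjusted p = 0.090) or in the Cy5 orientation alone (limma, adjusted p = 0.27). Its log2 ratio stayed above 0 in each of these fits, between 0.22 and 0.58. In the Cy3 orientation alone it passed (limma, adjusted p = 0.0066), but that fit called 19.2% of all genes and spots higher. GRX480 passed in 8 of 13 alternative fits.

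The other glutaredoxins of this type are ROXY1 and ROXY2, known for their roles in petal and anther development, where they also work with TGA factors. ROXY1 (AT3G02000) had signals of 682, 883 and 625 in wounded leaves, against 815, 944 and 634 in leaves that were not wounded. Its log2 ratio was below 0 in 3 of 3 replicates, at -0.26, -0.10 and -0.02, with a mean of -0.12 ± 0.12 (SD, n = 3; limma, adjusted p = 0.30). The groups overlapped, and ROXY1 did not pass the test. ROXY2 (AT5G14070) was not tested, since its deposited ratio was 0 on 6 of 12 arrays, and its signal lay below the dim limit on 11 arrays in wounded leaves and on 12 in leaves that were not wounded. The dim limit is the level below which 95% of the signals at spots with a deposited ratio of 0 lay, 81 to 124 depending on the array.

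None of the 10 glutathione transferases tested passed an adjusted p under 0.05. The data bound their measured ratios rather than show that there was no change. Without adjustment, 1 of these 10 was higher and 0 were lower, where 3326 of all 20072 genes and spots tested were higher and 3285 lower. Their mean log2 ratios ran from -0.14 to 0.18, with 7 above 0 and 3 below. The 95% interval of each lay within a fold change of 0.670 and 1.38, and for the 7 tau members within 0.862 and 1.37. A ratio of 2-fold in either direction therefore lies outside all 10 intervals, which are taken gene by gene and not adjusted for their number. The signal of GSTU22 lay below the dim limit on 6 arrays in wounded leaves and on 7 in leaves that were not wounded. Its interval therefore bounds the measured ratio and not the change of its RNA. The interval of GSTF4 rests on the variance that limma moderates over all genes, with an SE of 0.20 on the log2 scale. Its own SD over the replicates was 0.51. An interval from that SD alone would be wider and would hold a 2-fold change in both directions. For GSTF4 the bound therefore rests on the moderated variance and not on its own replicates.

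GSTL3 (AT5G02790), of the lambda class, whose enzymes act as thiol transferases rather than in conjugation, had the smallest p among the transferases. Its signal was 11103, 13058 and 7808 in wounded leaves, against 9964, 11220 and 6961 in leaves that were not wounded. The wounded value was the higher in each replicate, yet the groups overlapped because the signal of both differed more between replicates than within them. Its log2 ratio was 0.16, 0.22 and 0.17, with a mean of 0.18 ± 0.03 (SD, n = 3; limma, adjusted p = 0.10). It was above 0 on 12 of 12 arrays, from 0.09 to 0.25, which was so for 7.47% of all genes and spots tested, and no other member had a single sign on all arrays. On the arrays fitted singly, with a dye term and the biological replicate as a random block, GSTL3 had an adjusted p of 8.8e-04 from limma, but that fit also calls 15.4% of all genes and spots higher.

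GSTU20 (AT1G78370), a tau enzyme known to interact with the jasmonate-conjugating enzyme JAR1 in light signalling, showed a similar pattern. Its signal was 72248, 89685 and 54289 in wounded leaves, against 67091, 79878 and 48679 in leaves that were not wounded. Its log2 ratio was 0.11, 0.17 and 0.16, with a mean of 0.14 ± 0.03 (SD, n = 3; limma, adjusted p = 0.16), and it was above 0 on 11 of 12 arrays. Both genes thus gave small differences, even over the replicates, that did not pass the adjusted test. They were not alike over the dyes. GSTU20 had a mean of 0.23 over the Cy5 arrays and 0.061 over the Cy3 arrays, against 0.19 and 0.17 for GSTL3. In the plot of signals by replicate, the lines of GSTL3 and GSTU20 run nearly parallel, and those of GSTF4 cross.

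**Figure D2:**
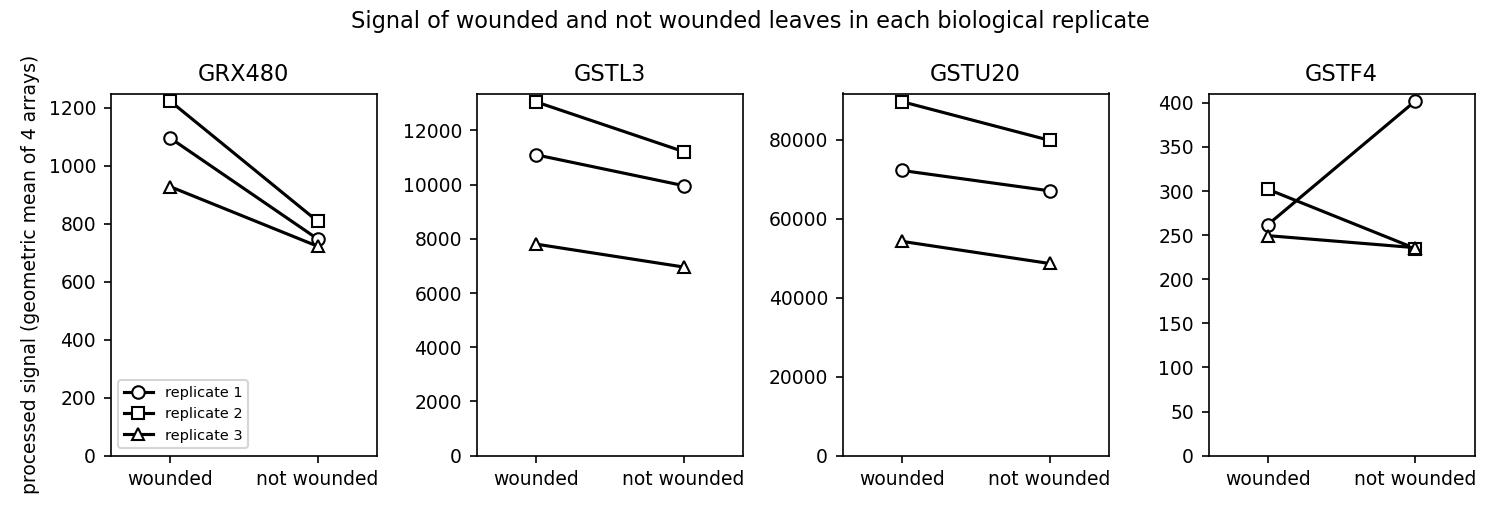
Processed signal (y axis, geometric mean of 4 arrays, arbitrary units, from 0) of wounded and not wounded leaves (x axis) for GRX480, GSTL3, GSTU20 and GSTF4, with a line for each biological replicate. The wounded signals of GRX480 lie between 929 and 1224, all above the not wounded ones, which lie between 722 and 809.

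The other tau members tested were GSTU16, GSTU18, GSTU22, GSTU23, GSTU26 and GSTU27, and their means ran from -0.05 to 0.18. GSTU26 (AT1G17190) had -0.05, 0.40 and 0.20 in the 3 replicates, a mean of 0.18 ± 0.23 (SD, n = 3; limma, adjusted p = 0.28), so that its mean was like that of GSTL3 while its replicates did not share a sign. GSTU18 (AT1G10360) had 0.10, -0.0021 and 0.0026, and GSTU16 (AT1G59700) had -0.10, 0.01 and -0.05. These were among the most precise of the members, with 95% intervals of 0.921 to 1.14 and 0.870 to 1.08 for the fold change. GSTU27 (AT3G43800) had 0.11, -0.04 and -0.06, with a mean of 0.00, and GSTU23 (AT1G78320) had -0.20, 0.09 and 0.18, with a mean of 0.02. Neither gene had a shared sign over the replicates. GSTU22 (AT1G78340) had 0.03, 0.05 and 0.09, but its signal lay below the dim limit on 6 of 12 arrays in wounded leaves and on 7 in leaves that were not wounded, which was so for no other tested member.

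Of the tau genes, 3 were too dim to test. GSTU25 (AT1G17180), an enzyme known to detoxify the explosive TNT, had a deposited ratio of 0 on 9 of 12 arrays and lay below the dim limit on all 12 in both samples. GSTU15 (AT1G59670) and GSTU21 (AT1G78360) had a ratio of 0 on 4 arrays each. GSTU15 was below the limit on 9 arrays in wounded leaves and on 10 in leaves that were not wounded, and GSTU21 on 9 and 11. No ratio is given for these genes or for ROXY2, since both samples were at the level of dim spots.

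The positions of the members were not used to choose them. Of the 18 genes, 11 lie on chromosome 1, all of them transferases except GRX480. GSTU20, GSTU21, GSTU22 and GSTU23 follow each other there with 0 genes between them, as do GSTU25 and GSTU26, while GSTU15 and GSTU16 are separated by 3 genes. Within the run of 4, GSTU20 had a log2 ratio of 0.14, GSTU22 one of 0.05 and GSTU23 one of 0.02, with overlapping 95% intervals of -0.0023 to 0.29, -0.09 to 0.20 and -0.22 to 0.26. Neighbours and close relatives could share signal on the array, which was not tested, since probe sequences were not used here.

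The phi transferases GSTF3 and GSTF4 varied most between replicates among the 14 members tested. GSTF4 (AT1G02950) had a log2 ratio of -0.62, 0.36 and 0.08, with a mean of -0.06 ± 0.51 (SD, n = 3; limma, adjusted p = 0.87). Its signal was 262, 302 and 249 in wounded leaves, against 402, 235 and 236 in leaves that were not wounded, so the not wounded sample of replicate 1 stood apart. Within a replicate the 2 dye-swap pairs of GSTF4 had a technical SD of 0.17. GSTF4 also had the largest dye difference of the tested members, at a mean of 0.66 for the Cy5 arrays and -0.78 for the Cy3 arrays, and only in replicate 1 were all 4 arrays below 0. With the wounded sample in Cy3 alone GSTF4 was lower (limma, adjusted p = 0.023), and with it in Cy5 alone it had the opposite sign (limma, adjusted p = 0.18). The Cy3 fit called 16.1% of all genes and spots lower, against 7.24% with both orientations. In 1 orientation alone, dye and wounding cannot be told apart.

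GSTF3 (AT2G02930) had signals of 936, 576 and 484 in wounded leaves, against 801, 782 and 559 in leaves that were not wounded. Its log2 ratio was 0.22, -0.44 and -0.21, with a mean of -0.14 ± 0.34 (SD, n = 3; limma, adjusted p = 0.53). Here the direction did not turn with the dye. For Cy5 and then Cy3 it was 0.14 and 0.31 in replicate 1, -0.50 and -0.38 in replicate 2, and -0.32 and -0.09 in replicate 3. The technical SD was 0.11, below the SD of 0.34 between the biological replicates. GSTF3 is nearly identical to its relative GSTF2, so that its spot could report both.

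Of the class III peroxidases, PRX52 (AT5G05340) is known for its part in lignin formation, and Prx37 (AT4G08770) is a peroxidase of the cell wall. Prx37 had signals of 374, 256 and 295 in wounded leaves, against 333, 253 and 272 in leaves that were not wounded, and a mean log2 ratio of 0.10 ± 0.07 (SD, n = 3; limma, adjusted p = 0.32). Its ratio was above 0 in 3 of 3 replicates. PRX52 had signals of 157, 186 and 172 in wounded leaves, against 161, 166 and 160 in leaves that were not wounded, with a mean log2 ratio of 0.08 ± 0.10 (SD, n = 3; limma, adjusted p = 0.48). The groups of both genes overlapped, and the 95% intervals of the fold change were 0.960 to 1.20 for Prx37 and 0.935 to 1.19 for PRX52.

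The dye mattered for many of the members. For 7 of the 14 (GSTF4, GSTU22, GSTU23, GSTU26, GSTU27, Prx37 and PRX52) the mean ratio had opposite signs with the wounded sample in Cy5 and in Cy3, which was so for 60.9% of all genes and spots tested. The median absolute difference between the 2 orientations was 0.24 on the log2 scale for the members and 0.42 over all. In the plot of single arrays the orientations of GSTL3, GSTU16 and GSTU18 lie together and those of GSTF4 lie apart. Averaging over both orientations, as done above, cancels a dye effect that is of equal size in both orientations of a replicate, but not one that differs between them.

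**Figure D3:**
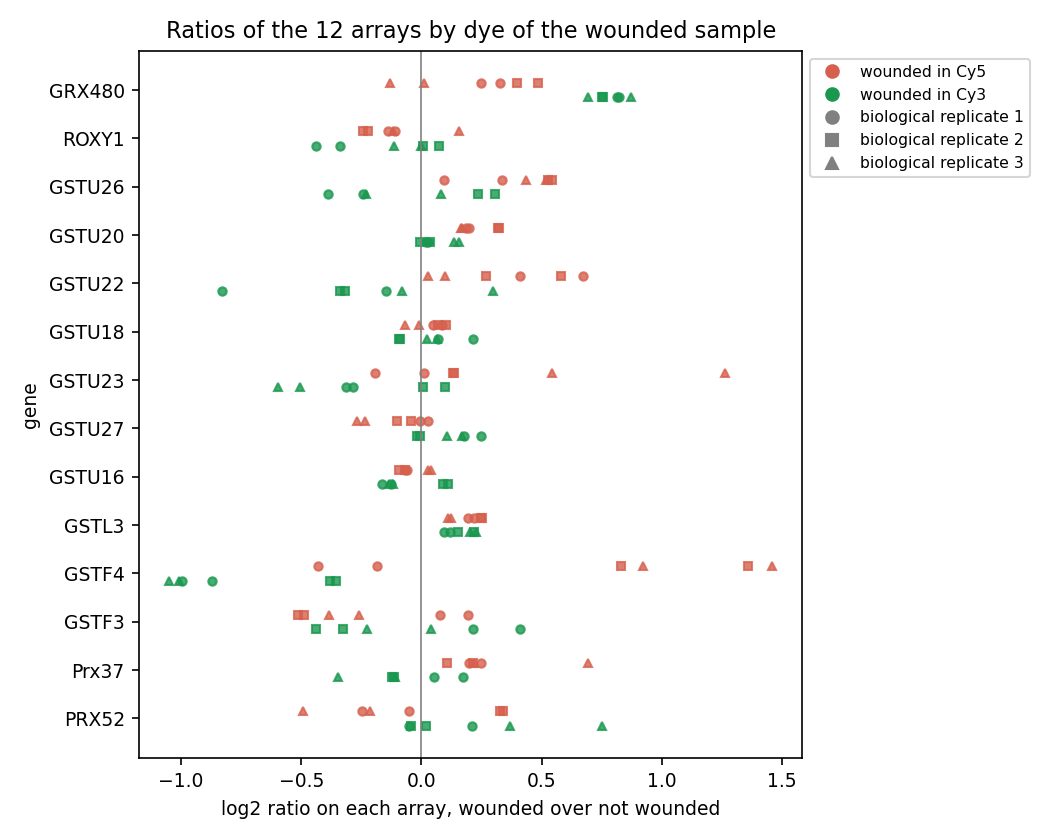
Log2 ratio of wounded over not wounded on each of the 12 arrays (x axis) for the 14 members tested (y axis), coloured by the dye of the wounded sample and with a symbol for each biological replicate. For GSTL3 all 12 arrays lie between 0.09 and 0.25, while those of GSTF4 run from -1.05 to 1.46.

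Genes of the same pathways that are not members were taken from a pair of lists. Of 28 listed loci of glutathione and ascorbate metabolism and of thioredoxin reduction, 8 had a named spot, and all 8 were tested. The second list held 19 genes, all tested, whose synonyms in the gene table name glutathione, thioredoxin, glutaredoxin, a peroxidase or a related enzyme. Together the lists had 23 genes. After adjustment 3 of them were higher, 5 lower and 15 not called, against the background of 7.25% higher and 7.24% lower. Without adjustment 6 were higher and 10 lower, where 3326 of all 20072 genes and spots tested were higher and 3285 lower. The median over the 23 was -0.17. GSH1 and GSH2, which make glutathione, had no named spot and are not analysed here.

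CCS (AT1G12520), the chaperone that loads copper into superoxide dismutase, had signals of 2355, 2074 and 1621 in wounded leaves, against 3361, 3105 and 2251 in leaves that were not wounded. It fell in 3 of 3 replicates, averaging -0.52 ± 0.05 on the log2 scale (SD, n = 3; limma, adjusted p = 0.016). PRXR1 (AT4G21960), a class III peroxidase, averaged -0.49 ± 0.09 (SD, n = 3; limma, adjusted p = 0.020), and GR (AT3G54660), the glutathione reductase of chloroplasts and mitochondria, -0.52 ± 0.24 (SD, n = 3; limma, adjusted p = 0.040). These 3 genes were lower on 12 of 12 arrays. GR had -0.25 in replicate 1, against -0.66 and -0.65 in replicates 2 and 3.

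TAPX (AT1G77490), the ascorbate peroxidase of thylakoids, was also lower, at -0.34 ± 0.12 (SD, n = 3; limma, adjusted p = 0.044). It was named after its values were seen, to complete the 5 genes that were lower. GR1 (AT3G24170), the glutathione reductase of cytosol and peroxisomes, had -0.37 ± 0.23 (SD, n = 3; limma, adjusted p = 0.080) and did not pass. GLDH (AT3G47930), which catalyses the last step of ascorbate synthesis, averaged -0.32 ± 0.05 (SD, n = 3; limma, adjusted p = 0.033). Its direction depended on the dye, since the Cy5 arrays averaged 0.46 and the Cy3 arrays -1.10, so the small SD of GLDH hides a difference between arrays. With the arrays fitted singly with a dye term GLDH did not pass (adjusted p = 0.18 from limma), while the other 7 pathway genes that were called did.

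The 3 genes that rose were AT2G41480, ATHM2 and VTC4. AT2G41480, a class III peroxidase, had signals of 152, 196 and 173 in wounded leaves, against 121, 128 and 117 in leaves that were not wounded, and averaged 0.50 ± 0.15 on the log2 scale (SD, n = 3; limma, adjusted p = 0.026). Its wounded signals all lay above the others, but leaves that were not wounded fell below the dim limit on 4 of 12 arrays. ATHM2 (AT4G03520), thioredoxin m2 of chloroplasts, had 0.32 ± 0.06 (SD, n = 3; limma, adjusted p = 0.035), and VTC4 (AT3G02870), a phosphatase of ascorbate synthesis, 0.33 ± 0.13 (SD, n = 3; limma, adjusted p = 0.049). Both were higher on 12 of 12 arrays.

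Over the 23 genes, 5 were higher and 9 were lower on all 12 arrays, where 7.47% and 6.73% of all genes and spots tested were. Among the members the same counts were 1 and 0. In the plot of pathway genes the 3 genes that were higher have the highest means, while at the lower end genes that did not pass, such as GR1, lie between those that were lower. Of the 8 called, CCS and PRXR1 passed in 10 of 13 alternative fits, and VTC4 in 5 of 13. None of the 8 passed without replicate 2, with adjusted p from limma of 0.10 for CCS to 0.23 for TAPX, nor without replicate 3, with 0.061 for CCS to 0.17 for TAPX. The same was so without the array of the differing label, with 0.056 for CCS to 0.43 for GLDH, whose log2 ratio was then -0.18. Without replicate 1, VTC4 did not pass (adjusted p = 0.056 from limma) and the other 7 did. Each of the 8 kept its direction in these fits.

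**Figure D4:**
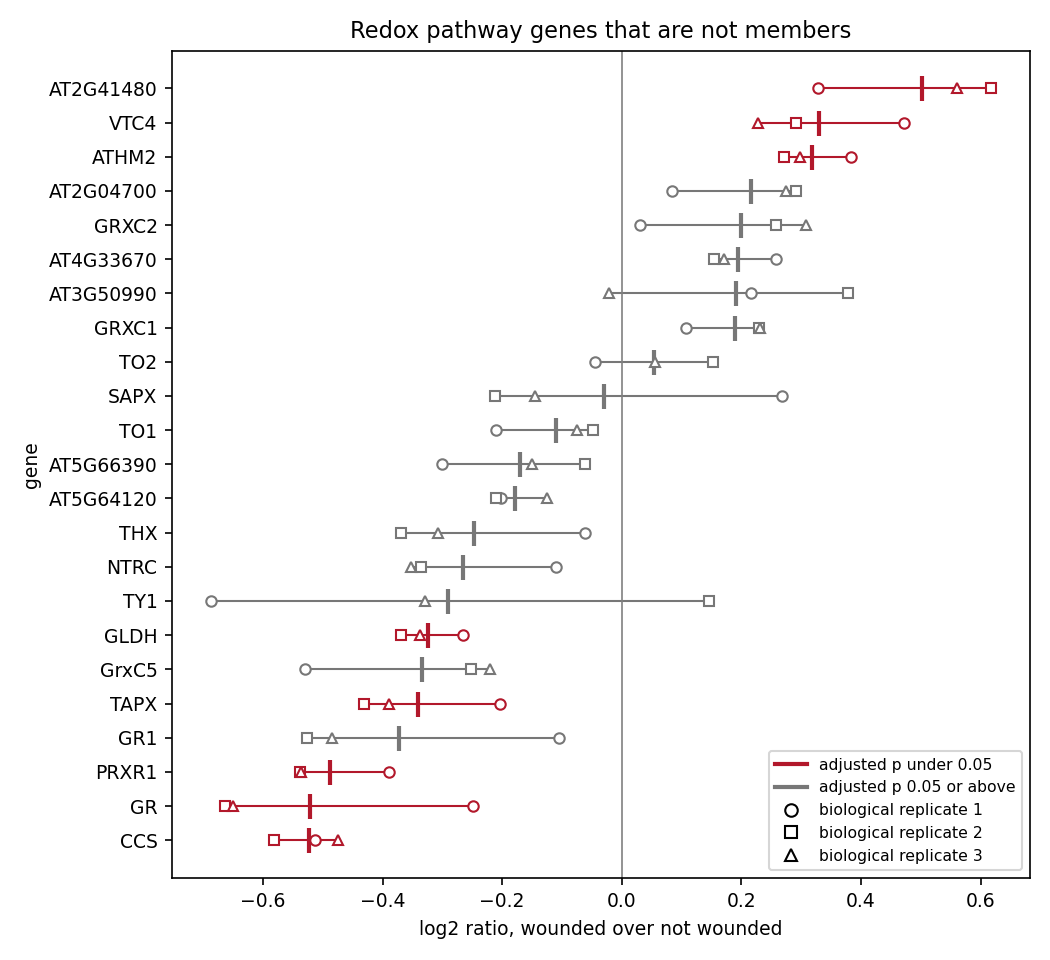
Log2 ratio of wounded over not wounded (x axis) for the 23 redox pathway genes that are not members (y axis, ordered by mean), with open symbols for the 3 biological replicates, a tick for the mean and a line over the range of the replicates. The 8 genes in red passed an adjusted p under 0.05, with means from -0.52 for CCS to 0.50 for AT2G41480.

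The tissue was checked against markers. Of 12 mesophyll loci 3 had a named spot, RCA, LHCB4.1 and LHCB4.2, and their signals were at least 79000 in wounded leaves and at least 111000 in leaves that were not wounded on every array. RCA, the activase of Rubisco, was lower in wounded leaves, at -0.45 on the log2 scale (limma, adjusted p = 0.041), while LHCB4.1 and LHCB4.2 had -0.03 and -0.10 and did not pass. RCA was not refitted under other settings. The part of this in the results for chloroplast enzymes above was not tested. Of 3 root markers, BGLU21 and BGLU22 were below the dim limit on 6 and 8 arrays in wounded leaves and on 3 and 5 in leaves that were not wounded, and PYK10 on 0 and 1, so some signal of root genes was present. The 7 seed loci had no named spot.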

How the data were processed

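Per the labels, 12 two-colour arrays compared RNA of wounded with not wounded leaves of Arabidopsis. The deposited intensities of both dyes were made by the authors with the scanner software (Agilent Feature Extraction, version 8.1), the dyes being balanced on housekeeping genes. The deposited log10 ratios of Cy5 over Cy3 matched them (Pearson r of at least 0.9999 per array, without ratios of 0 or at the limit of 2), and served to find dim spots and as an alternative. Scanner flags, slides and scans were not used here. The dye of the wounded sample came from the channel labels, and on 1 array of replicate 3, whose label numbers that sample differently from its title, the replicate came from the title.

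Mean ratios were fitted by lmFit and eBayes of limma (version 3.58.1, R version 4.3.3), and p-values adjusted by Benjamini-Hochberg. The study's own error model was not used here. The fit was run on simulated data in which the dye effect of a spot was the same in all replicates. That run therefore does not cover dye effects that differ between replicates. Gene names came from the platform annotation, updated by Entrez identifier with a table of assembly TAIR10.1 (9317 spots matched), and no sequence was used. By rule, every member is accounted for, members that passed, and the member with the smallest p of each other family, are given with their values, and of the other pathway genes up to 4 called in each direction are named, with GR and GR1. Further members, such as GSTF4 and GSTU26, were singled out after their values were seen. The annotation used has no gene titles, so the second pathway list was searched in gene synonyms and symbols. Members and lists were chosen with earlier results of these data known. Nothing in the labels says that the pools of a replicate were independent beyond being biological replicates. The number of replicates limits the precision. Alternatives were other normalizations, filters, variance models, dye orientations, arrays singly, and replicates or 1 array left out.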

Additional observations from a re-analysis of the deposited data

How the results depend on the processing

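The count of members that were higher was 1 and that of members that were lower 0 with median centring, loess, the deposited log ratios, other filters or a robust variance trend. The count of higher members was 3 with the arrays fitted singly with a dye term (GRX480, GSTL3 and GSTU20), 0 with the wounded sample in Cy5 only, 0 without the array of the differing label (GRX480 then had 0.47, adjusted p = 0.090 from limma), and 0 to 0 with each replicate left out. The count lower was 1 with the wounded sample in Cy3 only, which was GSTF4. The share of all genes and spots called higher was 0.69% without replicate 2, 1.66% without replicate 3 and 0.86% without that array, and that called lower 0.25%, 1.10% and 0.41%, so fewer calls were made there at all. Without replicate 1 the shares were 7.37% and 8.38%, not below those of all replicates, and GRX480 still did not pass (adjusted p = 0.060 from limma). The shares were 14.1% higher and 15.7% lower with the wounded sample in Cy5 only, and 19.2% and 16.1% with it in Cy3 only. With the arrays fitted singly they were 15.4% and 15.2%.

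The sign of some uncalled members turned. With the wounded sample in Cy5 only, GSTF4 had 0.66, GSTU27 -0.10 and PRX52 -0.057, and with it in Cy3 only, GSTU22 had -0.24, GSTU23 -0.27, GSTU26 -0.040 and Prx37 -0.078. GSTU27 had -0.00080 with median centring, -0.00041 with loess and -0.014 without the array of the differing label, where GSTF4 had 0.063. With a replicate left out, GSTF3 ran from -0.32 to 0.0091, GSTF4 from -0.27 to 0.22, GSTU23 from -0.051 to 0.13 and GSTU27 from -0.049 to 0.034. Of the called pathway genes GLDH turned, to 0.46 with the wounded sample in Cy5 only. With no filter on dim spots, ATHM2, GR, TAPX and VTC4 did not pass (limma, adjusted p = 0.0505, 0.056, 0.062 and 0.068), while CCS, PRXR1, AT2G41480 and GLDH did. VTC4 also did not pass with median centring (limma, adjusted p = 0.051). ATHM2 and VTC4 passed in neither dye orientation alone. Of 182 values for 14 members, 158 kept their direction and their side of the threshold. The cause of these changes was not tested. The intensity of the spot limits GSTU22 and the 4 members not tested.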
